A study of Mus musculus with 2 samples.

Results

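Immediate early response genes are switched on within minutes of a stimulus, from growth factors, stretch or wounding, by transcription factors that already sit in the cell, so that no new protein has to be made first. Many of them encode transcription factors themselves. Fos and Jun proteins pair through basic leucine zippers to form AP-1, which binds DNA only as a dimer, while other members mark or end the response, such as Zfp36, whose protein binds AU-rich mRNAs and speeds their decay. The same genes are also known to rise while a tissue is digested into single cells, in whatever cell type is present. Their levels were therefore described in every cell class of each library and not in tendon cells alone. The 10 genes were named in a fixed list and are 10 of the 27998 genes in the count matrices: Fos, Fosb, Jun, Junb, Jund, Egr1, Atf3, Ier2, Zfp36 and Nr4a1.

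The data are 2 single-cell RNA libraries from tendons of the fore- and hindlimbs of pups at postnatal day 7, with 1 library per condition, each from cells pooled from 2 pups. In the mutant, a floxed and a null allele of Tgfbr2, the type II TGF-beta receptor, were combined with ScxCre. ScxCre deletes the floxed allele in cells that express the tendon transcription factor Scleraxis. Its activity is uneven among tenocytes before birth, and the paper reports complete targeting only in early postnatal stages. By immunostaining, the paper found the receptor nearly lost from mutant tendons at birth. The labels of the control disagree, with wild type in the title and an abbreviation for heterozygote in the description, and it is named wild-type here. Per the methods, all mice carried the ScxGFP reporter and the Cre reporter Ai14 Rosa26-tdTomato, and the tissue was digested enzymatically with no scraping. For cell culture the paper scraped tendons to remove cells of the epitenon and paratenon, the layers around the tendon. The paper states that its Scx level took in that of the ScxGFP reporter and so does not give native Scx. The share of reporter transcripts in the Scx count used here was not tested. The wild-type library held 2364 cells with a median of 3866.5 molecules tagged by a unique molecular identifier (UMIs), and the mutant library 2592 cells with a median of 2828. With 1 library per group there is no spread between replicates. No test was run, intervals cover counting error only, and condition, pool of pups and library preparation cannot be told apart. The Tgfbr2 level in Scx-high cells (defined below) was 32.2 CPM (a gene's UMIs scaled to 1000000 UMIs of the class) in wild-type and 62.1 in mutant cells. Whether its 3′ tag lies outside the floxed part is not given in the sources used here, so it checks neither label.

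Each library was clustered without the 10 genes, other early response genes and heat shock genes, and clusters were grouped into 5 classes. Scx-high cells, with over 5000 CPM of Scx, numbered 1280 in wild-type and 400 in mutant. In mutant tendons at this age, the paper reports that most cells had lost ScxGFP and reads those still positive as newly recruited. Whether the mutant Scx-high cells are such cells was not tested. Scx-low cells, the other mesenchymal clusters, numbered 578 in wild-type and 1601 in mutant. The paper reads the mutant cells without tendon markers as dedifferentiated tenocytes. Whether the Scx-low cells of the 2 libraries are of like origin was not tested. Both wild-type Scx-low clusters and the mutant one of 855 cells were named as fibroblasts by their markers. The other mutant Scx-low cluster, of 746 cells, got no name, with 2 fibroblast markers and 1 tenocyte marker past the limits and Fbln7, Prg4 and Prph as its leading genes. It held 134 CPM of the fibroblast marker Pi16 and 1623 CPM of the tenocyte marker Tnmd, against 515 and 356 CPM in the cluster of 855 cells. Immune cells numbered 178 and 180, mural cells of vessel walls 119 and 74, and endothelial cells 22 and 31. The 12 immune markers summed to 32458 CPM in wild-type and 34546 in mutant immune cells, and to at most 261 in the other classes. The 12 mural markers summed to 50279 and 35972 CPM in mural cells, and to at most 1870 in the other classes. The 11 endothelial markers summed to 9244 and 8210 CPM in endothelial cells, and to at most 577 in the other classes. The clusters had been named by these markers, so the sums describe the classes and do not test them. In Scx-high cells the 10 tenocyte markers summed to 21982 CPM in mutant against 40461 in wild-type. Scx, which defines the class, made up 13702 and 23800 CPM of these sums. The 12 fibroblast markers summed to 11658 CPM against 1753. The mutant Scx-high cluster of 400 cells and the wild-type one of 1016 cells were named tenocyte by their markers, while the wild-type one of 264 cells got no name. The level of the early genes in cells with mainly haemoglobin mRNA served as a background from free RNA. There the 10 genes summed to 114 CPM in wild-type and 15 in mutant cells, against 2921 to 6507 CPM in the 5 classes. Haemoglobin, at a median of 97.3% and 98.1% of the UMIs in those cells, lowers the CPM of every other gene there. Per cell the 10 genes summed to 0.636 and 0.0633 UMIs, against 10.5 to 18.5 in the 5 classes. How much free RNA the 5 classes hold was not tested.

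In the GENCODE annotation of GRCm38, Fos lies at chr12:85473890-85477273 on the plus strand, Junb at chr8:84974484-84978718 and Zfp36 at chr7:28376784-28380253, both on the minus strand, and Jund at chr8:70698949-70700616 on the plus strand. The promoters of Fos, Junb and Zfp36 are shown because these 3 genes differed most between the libraries in Scx-low cells. Each stretch runs from 250 bases before to 50 bases after the RefSeq gene start on GRCm38.p6, read 5′ to 3′ on the gene's own strand. Capitals mark TGACG, the core of the cAMP response element, GCGNGGGCG, a site bound by EGR proteins, and the CArG box, which is bound by serum response factor. All were searched on both strands. The stretches are Fos, chr12:85473640-85473939 on the plus strand, Junb, chr8:84978699-84978998 on the minus strand, and Zfp36, chr7:28379179-28379478 on the minus strand. The Zfp36 stretch lies within the GENCODE gene given above, so RefSeq and GENCODE place the start of this gene differently.
Fos: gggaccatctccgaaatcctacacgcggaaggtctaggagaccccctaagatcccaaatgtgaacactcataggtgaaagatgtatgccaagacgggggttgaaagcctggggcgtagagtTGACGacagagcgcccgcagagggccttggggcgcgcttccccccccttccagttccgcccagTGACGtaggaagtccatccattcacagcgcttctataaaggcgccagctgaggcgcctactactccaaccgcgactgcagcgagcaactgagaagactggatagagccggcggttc
Junb: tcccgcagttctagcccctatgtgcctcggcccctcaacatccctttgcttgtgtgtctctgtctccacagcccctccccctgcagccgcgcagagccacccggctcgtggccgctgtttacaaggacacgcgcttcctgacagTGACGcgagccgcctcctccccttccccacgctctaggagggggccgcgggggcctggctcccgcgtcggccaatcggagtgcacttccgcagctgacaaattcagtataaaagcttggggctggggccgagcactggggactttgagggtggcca
Zfp36: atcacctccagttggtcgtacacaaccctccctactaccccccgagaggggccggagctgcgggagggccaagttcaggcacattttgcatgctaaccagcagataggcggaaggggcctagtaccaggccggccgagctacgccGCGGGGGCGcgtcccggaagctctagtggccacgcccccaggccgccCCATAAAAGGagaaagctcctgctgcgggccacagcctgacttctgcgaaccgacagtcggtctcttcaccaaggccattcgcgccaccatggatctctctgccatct
TGACG stood at 2 places in the Fos stretch, 129 and 66 bases before the start, and at 1 place in that of Junb, 106 bases before it. The Zfp36 stretch held none, but a CArG box 58 bases and an EGR site 105 bases before the start. The table held a promoter for 8 of the 10 genes, with none for Egr1 or Ier2. TGACG lay in 5 of the 8, Fos, Fosb, Junb, Atf3 and Nr4a1, against 20.8% of all 32851 promoters. The EGR site lay in those of Fosb, Zfp36 and Nr4a1, against 5.55% of all, and the CArG box in Zfp36 alone, against 1.63%. The full element TGACGTCA (1.79% of all promoters) and the AP-1 site TGANTCA (7.81%) were in none of the 8. A match is a run of letters and was not tested as a site. Sequence beyond these stretches was not searched, so a missing match does not show that a gene lacks the element.

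**Figure D1:**
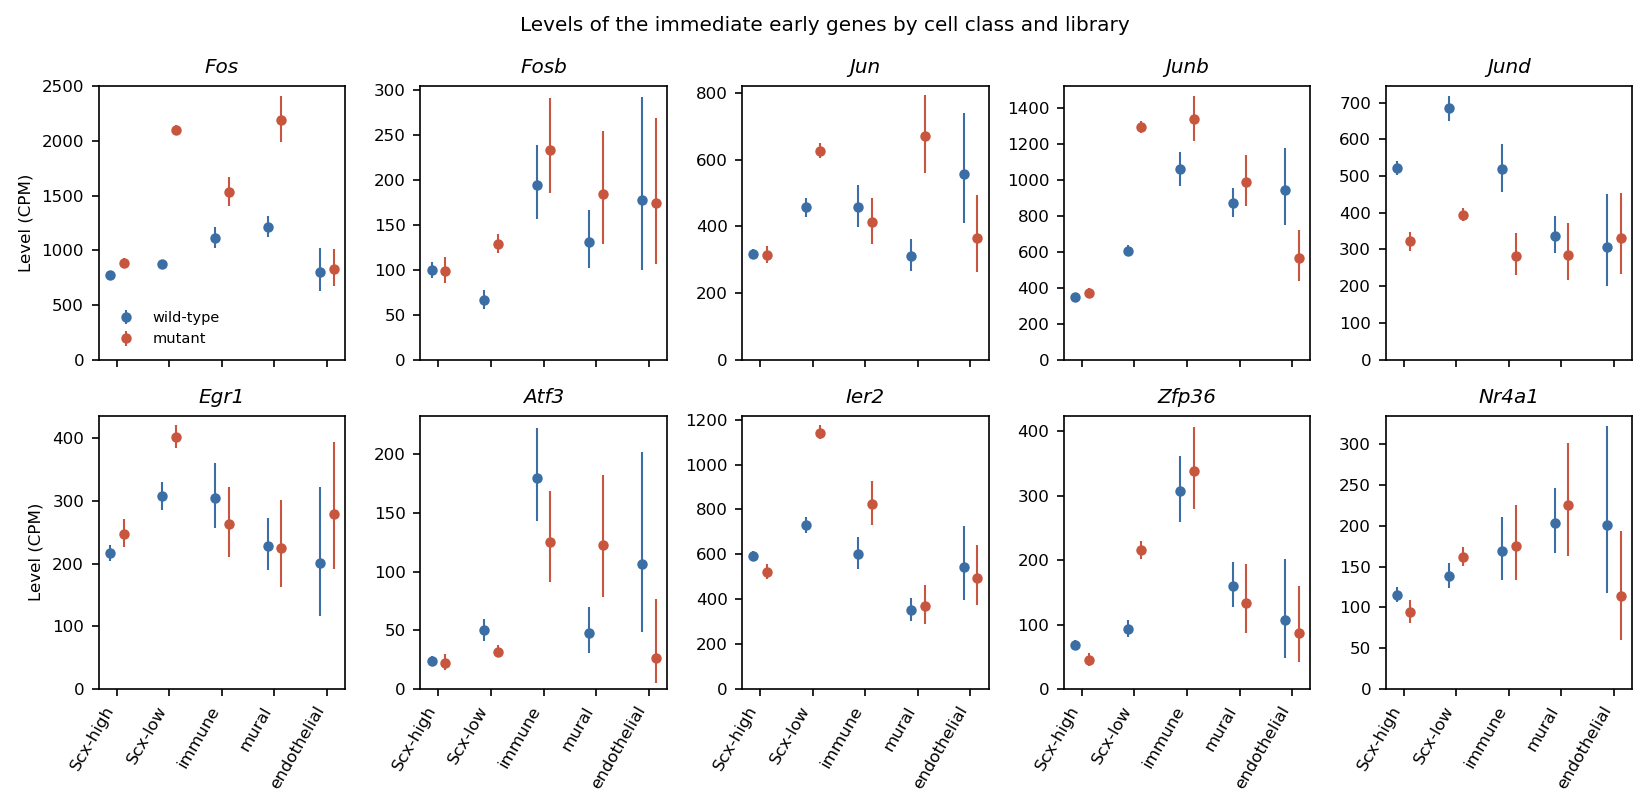
Level of each of the 10 genes (CPM) in the 5 cell classes, with wild-type in blue and mutant in red. Bars are exact Poisson 95% intervals for counting error within a library. Fos, Junb, Ier2 and Zfp36 stood higher in mutant than in wild-type Scx-low cells, while in Scx-high cells Jund and Zfp36 stood lower in mutant and Fos and Junb lay close together.

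In Scx-low cells most of the early genes made up a larger share of the UMIs in the mutant library. In UMIs per cell, with shallower mutant cells, Fos, Fosb, Junb, Ier2 and Zfp36 were higher in the mutant. The other members were not, with Jun at 1.79 UMIs per cell in wild-type and 1.78 in mutant. Fos was at 875 CPM in wild-type and 2106 in mutant cells, 2.41-fold higher (95% interval 2.29 to 2.53). Junb, an AP-1 subunit that pairs with Fos, went from 607 to 1297 CPM, 2.14-fold higher (2.02 to 2.27). Zfp36 went from 93.2 to 215 CPM, 2.31-fold higher (1.99 to 2.69). These 3 of the 10 genes were at least 2-fold higher in the mutant, against a background of 3.41% of the 4804 genes measured, those that averaged 0.1 UMI or more per cell in either library. The median log2 ratio of the 10 genes was 0.55, and that of all these genes -0.07. All 10 genes passed this minimum in each of the 5 classes.

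The other AP-1 subunits did not move as a block. Fosb, a Fos relative, was at 66.3 and 128 CPM, a ratio of 1.94 (1.62 to 2.33). Jun was at 456 and 627 CPM, a ratio of 1.37 (1.28 to 1.48). Jund was lower in the mutant. It is the Jun gene that most cells express without a stimulus, and it stood at 685 CPM in wild-type and 395 in mutant cells, a ratio of 0.577 (95% interval from 0.539 to 0.618). Atf3, a stress-induced factor of the same zipper family, was at 49.9 and 31.9 CPM (0.638, 0.495 to 0.823), and its interval held 1 without the wild-type cluster of 158 cells described with the clusters. In these cells the ratio of Fos, Fosb, Jun and Junb was thus above 1 and that of Jund under 1.

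Of the members outside the zipper family, Ier2, a nuclear protein named for its early induction, was at 729 CPM in wild-type and 1143 in mutant cells, a ratio of 1.57 (1.48 to 1.66). Egr1, a zinc finger factor that is also known as a regulator of tendon collagen genes, was at 307 and 402 CPM (1.31, 1.2 to 1.43). Nr4a1, an orphan nuclear receptor, was at 138 and 162 CPM (1.17, 1.03 to 1.34). All 3 ratios were under 2.

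Which cells make up the Scx-low class differed between the libraries, and the 2-fold calls rested on it. The wild-type class was a cluster of 420 cells and a cluster of 158 cells led by Bglap2, Ackr2 and Rab37. In the smaller cluster Fos was at 304 CPM, against 1178 in the larger, and the 10 genes summed to 2951 CPM against 4567. The mutant class was a cluster of 855 cells, with Fos at 2345 CPM and a sum of 7469, and a cluster of 746 cells, with Fos at 1857 CPM and a sum of 5504. Without the 158 cells, none of the 10 genes was 2-fold higher in the mutant, against 3.25% of all genes. The ratio was then 1.79 (1.70 to 1.88) for Fos, 1.96 (1.83 to 2.10) for Junb and 1.73 (1.48 to 2.04) for Zfp36, and 0.628 (0.580 to 0.680) for Jund. Atf3 (0.873, 0.634 to 1.22) and Egr1 (1.09, 0.986 to 1.2) then had intervals that held 1. The median log2 ratio of the 10 genes was 0.48. Set against the wild-type cluster of 420 cells, the larger mutant cluster had 1 gene 2-fold higher, Junb at 2.27-fold, against 2.91% of all genes. The smaller had none, against 4.47%. Fos was 1.58-fold higher in it, and Jun (0.901, 0.822 to 0.988) and Egr1 (0.892, 0.797 to 0.998) were lower.

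**Figure D2:**
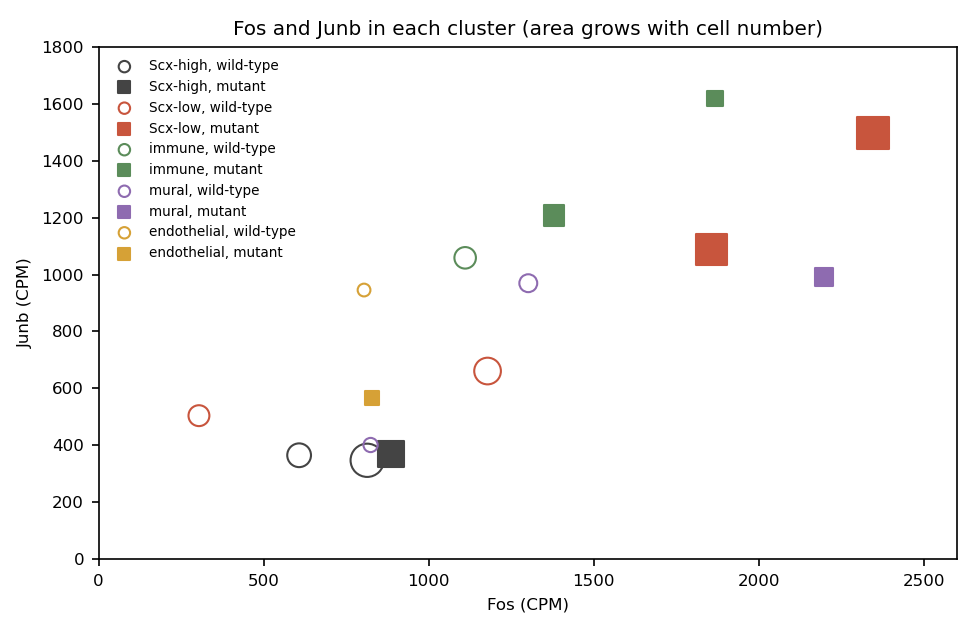
Level of Fos (x axis, CPM) and Junb (y axis, CPM) in each cluster of the 5 classes. Open circles are wild-type and filled squares mutant clusters, and the marker area grows with the number of cells. Both mutant Scx-low clusters, at 1857 and 2345 CPM of Fos, lie to the right of both wild-type ones, at 304 and 1178, while the Scx-high clusters of both libraries lie together at low Junb.

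In Scx-high cells 7 of the 10 genes were lower in the mutant, all 10 relative to the median gene, and 4 with equal UMIs per cell, where Fosb (1.15), Jun (1.05) and Atf3 (1.29) were above 1. None of the 10 was at least 2-fold higher, against a background of 11.8% of 5107 genes. Fos was at 776 CPM in wild-type and 884 in mutant cells (1.14, 1.08 to 1.21), Junb at 350 and 371 (1.06, 0.968 to 1.16) and Jun at 316 and 314 (0.991, 0.9 to 1.09). Egr1 was at 217 and 248 CPM, a ratio of 1.14. These 3, Fos, Junb and Egr1, were the ones with ratios above 1. The median log2 ratio of all genes in this class was 0.31, and the 10 genes had a median of -0.36 relative to it. Jund was at 522 and 322 CPM (0.617, 0.564 to 0.674) and Zfp36 at 68.2 and 45.6 (0.669, 0.522 to 0.850). Zfp36, 2.31-fold higher in mutant Scx-low cells, was thus lower in mutant Scx-high cells.

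Both classes of a library came from the same digestion, so they were also compared within each library. In the mutant library all 10 genes were higher in Scx-low cells than in Scx-high cells, and 4 were at least 2-fold higher, against 6.93% of all 5092 genes. Zfp36 was 4.72-fold higher (3.78 to 5.95), Junb 3.50-fold (3.23 to 3.79), Fos 2.38-fold (2.26 to 2.51) and Ier2 2.19-fold (2.04 to 2.35). The median log2 ratio was 0.89, and that of all genes 0.02. In the wild-type library 9 of the 10 were higher in Scx-low cells. Only Atf3, at 2.12-fold (1.62 to 2.76), was 2-fold higher, against 18.4% of all genes, and the median log2 ratio of 0.42 was near that of all genes, 0.40. Fosb was the exception there, at 99.4 CPM in Scx-high and 66.3 in Scx-low cells. The wild-type Scx-low class includes the cluster of 158 cells, which differed from that of 420 cells. Atf3 was at 36.5 CPM in the cluster of 420 cells and 75.3 in that of 158, against 23.6 in wild-type Scx-high cells. In the same order Junb was at 661 and 504 CPM against 350, Zfp36 at 124 and 34.5 against 68.2, and Fos at 1178 and 304 against 776.

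When mutant Scx-low cells were set against wild-type Scx-high cells, 3 of the 10 genes were at least 2-fold higher, against a background of 16.1% of 4357 genes. Atf3 fell under the minimum of 0.1 UMI per cell there. The 3 genes were Junb (3.70-fold, 3.51 to 3.90), Zfp36 (3.16-fold, 2.79 to 3.58) and Fos (2.71-fold, 2.61 to 2.82). The median log2 ratio of the 10 genes was 0.92, and that of all genes 0.31. Jund alone was lower (0.757, 0.712 to 0.804). This comparison shares its cells with those above and adds no further library.

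Immune cells gave a reference outside the mesenchyme. None of the 10 genes was at least 2-fold higher in mutant immune cells, against a background of 4.99% of 3648 genes. Fos was at 1110 CPM in wild-type and 1535 in mutant cells (1.38, 1.22 to 1.56), Junb at 1059 and 1339 (1.26, 1.11 to 1.44) and Ier2 at 602 and 823 (1.37, 1.15 to 1.62). The intervals of these 3 lay above 1 and under those of the same genes in Scx-low cells, except for Ier2, whose intervals overlapped. For Fos and Junb this also held without the wild-type Scx-low cluster of 158 cells. The mutant cluster of 746 cells, against the wild-type one of 420, had Fos at 1.58 (1.49 to 1.67), which overlaps immune cells. Its Junb, at 1.65 (1.53 to 1.77), lay above that of immune cells and its Ier2, at 1.07 (0.995 to 1.15), under. In the mutant cluster of 855 cells Fos was at 1.99 (1.89 to 2.10) and Junb at 2.27 (2.11 to 2.44), both above. In immune cells Zfp36 was at 307 and 338 CPM, a ratio of 1.10 (0.855 to 1.42). Jund was lower here too, at 519 and 283 CPM (0.546, 0.427 to 0.693). The immune class was 1 cluster of wild-type cells and 2 of mutant cells, of 137 and 43 cells, in which the 10 genes summed to 5050 and 6543 CPM.

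Vessel cells were few, and their values are coarse. In mural cells 2 of the 10 genes were at least 2-fold higher in the mutant, against a background of 10.9% of 5229 genes. Jun was at 312 and 669 CPM (2.15, 1.69 to 2.72), and Atf3 at 47.5 and 123 CPM (2.58, 1.41 to 4.71) from 25 and 24 UMIs. The mutant class was 1 cluster, but the wild-type class was a cluster of 85 cells led by Actg2 and Cnn1 and a cluster of 34 led by Kcnj8 and Higd1b. In these, Jun was at 256 and 574 CPM and Atf3 at 55.3 and 10.8. The part of this make-up in the ratios was not tested. Fos was at 1218 and 2197 CPM (1.80, 1.59 to 2.04), while Junb and Ier2 had intervals that held 1. The count of 2 did not hold under other settings. Relative to the median gene of the class, at a log2 ratio of 0.11, Atf3 alone was 2-fold higher, and with equal UMIs per cell none was. In 22 and 31 endothelial cells none was 2-fold higher, against a background of 15% of 5894 genes. Fos was at 804 and 828 CPM there, Junb at 946 and 566 (0.599, 0.425 to 0.841), and Atf3 lower on 9 and 3 UMIs (0.246, 0.0428 to 0.985). Haemoglobin and other erythroid markers summed to 260 CPM in wild-type and 20036 CPM in mutant endothelial cells, and their part in these ratios was not tested.

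**Figure D3:**
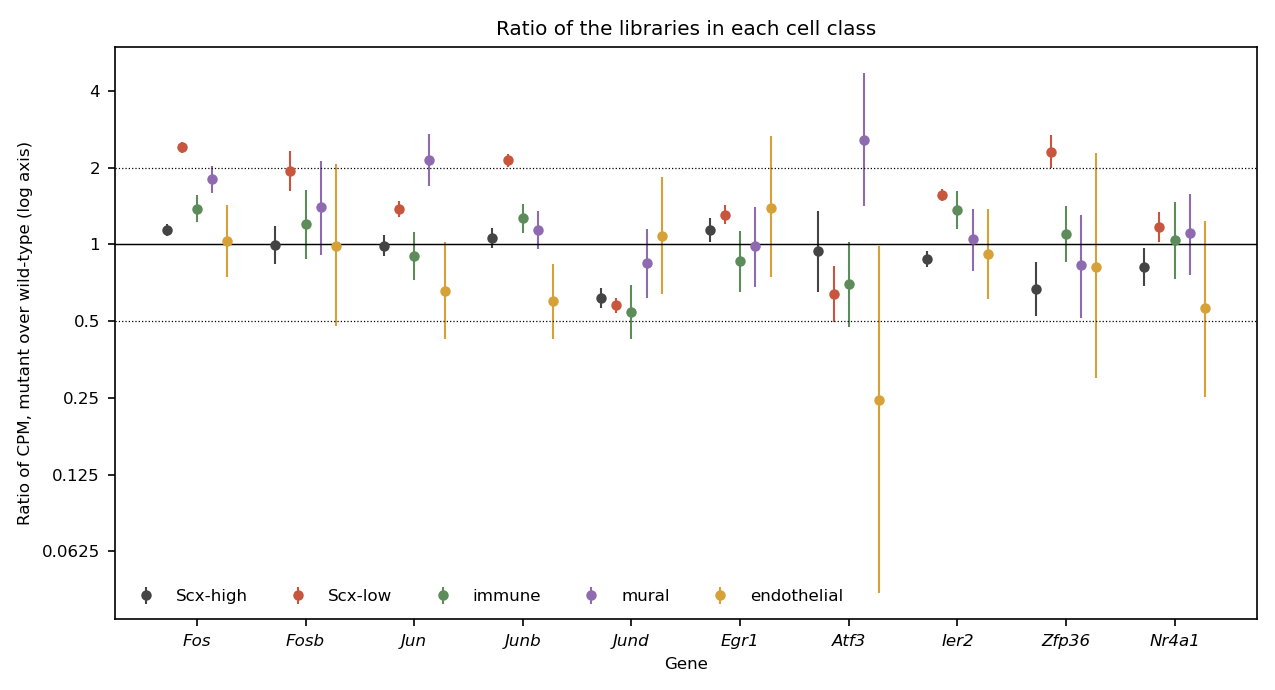
Ratio of CPM, mutant over wild-type, for each gene in the 5 classes, on a log axis with exact 95% intervals for counting error. The solid line is 1 and the dotted lines are 2-fold. Only in Scx-low cells are Fos, Junb and Zfp36 above the 2-fold line, and the interval of Jund lies under 1 in Scx-high, Scx-low and immune cells.

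Ordered over the 10 class and library groups, the sum of the 10 genes was highest in mutant Scx-low cells, at 6507 CPM (6433 to 6581). Mutant immune cells (5526 CPM) and mutant mural cells (5400) came next, with overlapping intervals, and mutant Scx-high cells were lowest at 2921 (2844 to 2999). The mutant library thus held both ends of the order, with wild-type immune cells at 4902 and wild-type Scx-low cells at 4007 between them. The top group differed by gene. Mutant mural cells (2197 CPM) and mutant Scx-low cells (2106) led for Fos with overlapping intervals. Mutant Scx-low cells led for Egr1 and Ier2, clear of the next group. Mutant immune cells (1339 CPM) and mutant Scx-low cells (1297) led for Junb with overlapping intervals, and mutant mural cells led for Jun and Nr4a1, overlapping the next group. Immune cells led for Zfp36, Fosb and Atf3 in both libraries, and for Zfp36 the 2 immune groups lay clear of the rest. For Jund the order was turned round, with wild-type Scx-low (685 CPM), Scx-high (522) and immune cells (519) on top.

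Detection of several early genes in one cell depends on depth, so each cell was thinned to 1500 UMIs and shallower cells were left out. At least 5 of the 10 genes were detected in 24.7% of 546 wild-type Scx-low cells (exact binomial 95% interval 21.2 to 28.6) and in 41.9% of 1439 mutant ones (39.3 to 44.5). In Scx-high cells the shares were 17.0% (14.9 to 19.3) and 14.2% (10.8 to 18.1), and in immune cells 43.1% (34.6 to 51.8) and 35.9% (26.7 to 46.0), each with overlapping intervals. The immune shares rest on the deeper cells, 137 of 178 in wild-type and 103 of 180 in mutant. Mural cells, at 22.0% and 28.6%, and endothelial cells, at 14.3% and 33.3%, had wider intervals that also overlapped. In haemoglobin-rich cells 0 of 77 and 0 of 71 cells reached 5 genes, which allows shares up to 4.68% and 5.06%. Their median depth was 5682 and 4451 UMIs, but haemoglobin made up a median of 97.3% and 98.1% of the UMIs per cell. They held a median of 93.5 and 47 genes before thinning, against 1590 and 1248 in Scx-low cells. Few other UMIs were thus left after thinning, so these counts of 0 do not measure a background. Without thinning, 1 of 88 wild-type and 0 of 79 mutant haemoglobin-rich cells reached 5 genes.

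Without thinning the shares in Scx-low cells were 59.0% and 65.7%, a smaller gap than after thinning, with a median depth of 3755.5 and 2721 UMIs. In immune cells they were 62.4% (54.8 to 69.5) and 45% (37.6 to 52.6), with intervals that did not overlap. By cluster, the thinned share was 29.9% and 11.2% in the wild-type Scx-low clusters of 420 and 158 cells, and 47.8% and 35.4% in the mutant ones of 855 and 746 cells. The interval of the wild-type cluster of 420 cells (25.5 to 34.7) overlapped that of the mutant cluster of 746 cells (31.8 to 39.1). The mean number of genes detected per Scx-low cell was 3.34 (SD 1.75 over cells) for wild-type and 4.06 (SD 1.86) for mutant. By cluster the mean was 3.54 and 2.80 in the wild-type clusters of 420 and 158 cells. It was 4.34 and 3.74 in the mutant ones of 855 and 746 cells. Cells with none of the 10 made up 5.13% of wild-type and 3.47% of mutant Scx-low cells. The shares with at least 1 gene, 94.9% (92.7 to 96.6) and 96.5% (95.4 to 97.4), had overlapping intervals.

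**Figure D4:**
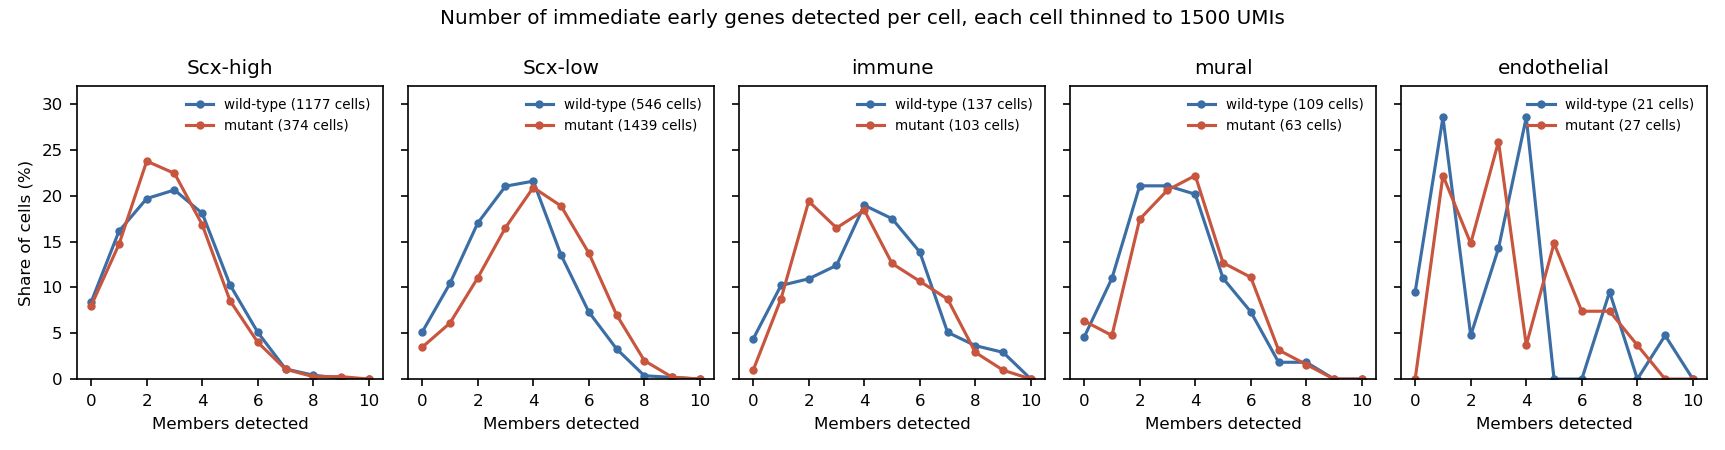
Share of cells (%) by the number of the 10 genes detected, after thinning each cell to 1500 UMIs, in the 5 classes. Blue is wild-type and red mutant. The mutant curve lies to the right of the wild-type curve in Scx-low cells, and the curves nearly coincide in Scx-high cells.

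In Scx-low cells the number of genes detected per cell spread more widely than independent detection at the same shares gives. In mutant Scx-low cells 36.8% of cells would hold at least 5 genes if detection were independent, and 41.9% did. In wild-type ones the values were 19.1% and 24.7%. At least 3 genes would be held by 87.8% of mutant cells, and 79.4% held them, against 72.8% and 67.4% in wild-type. For at least 8 genes the values were 0.484% and 2.22% in mutant, and 0.0988% and 0.549% in wild-type. For none of the 10 they were 0.207% and 3.47% in mutant, and 1.08% and 5.13% in wild-type. Over the 45 pairs of genes, those with at least 3 expected cells had a median ratio of observed to independent co-detection between 1.10 and 1.23 over the 5 classes of the 2 libraries. Fos and Junb were found in the same cell in 842 of 1439 mutant Scx-low cells, 1.08 times the 780 of independent detection, and in 177 of 546 wild-type ones, 1.26 times. The highest ratio possible is smaller in the mutant, so these ratios cannot be compared between the libraries. Fos was detected in 1133 and Junb in 991 of the mutant cells, and in 283 and 270 of the wild-type ones. Fos and Jund showed no such excess, with ratios of 1.03 and 0.982. Cells of 1 library are not replicates, and differences in composition within a class, which also give such an excess, were not separated from it.

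Other early response genes split in the same comparison. Of a list of 25, 17 passed the minimum in Scx-low cells, where 2 were at least 2-fold higher and 3 at least 2-fold lower in the mutant, with a median log2 ratio of 0.34. Of all genes measured, 3.41% were 2-fold higher and 6.89% lower. Myc, a growth regulator that TGF-beta signalling is known to repress, was at 10.2 and 57.3 CPM, 5.64-fold higher (3.68 to 9.06). Socs3, a feedback inhibitor of cytokine signalling, was at 96.3 and 263 CPM, 2.73-fold higher (2.37 to 3.17). Klf4, a zinc finger factor, was lower at 562 and 209 CPM (0.372, 0.341 to 0.405), as were the small Maf factor Maff (0.346, 0.246 to 0.484) and the small GTPase gene Rhob (0.226, 0.153 to 0.331). Without the wild-type cluster of 158 cells, Myc was 7.71-fold and Socs3 3.0-fold higher, Klf4 was at 0.564 and no longer 2-fold lower, Rhob was at 0.284, and Maff fell under the minimum.

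Several of these values recurred in other classes. In immune cells 15 of the 25 were measured, with 3 at least 2-fold higher and 2 at least 2-fold lower, against 4.99% and 6.61% of all genes. Socs3 was 2.02-fold higher (1.41 to 2.93), Gadd45b, a stress-response gene, 2.54-fold (1.72 to 3.79) and Csrnp1 2.65-fold (1.44 to 5.08). Klf4 (0.468, 0.334 to 0.647) and Rhob, on 26 and 2 UMIs (0.105, 0.0121 to 0.420), were lower, as in Scx-low cells. In Scx-high cells 17 were measured, 4 were at least 2-fold higher and none lower, against 11.8% and 4.09% of all genes. Maff was 4.50-fold (2.98 to 6.88), the TGF-beta target Ctgf 2.91-fold (2.40 to 3.54), Myc 2.59-fold (1.68 to 3.98) and Klf6 2.12-fold higher (1.78 to 2.52), while Socs3 was lower there, at 138 and 74.3 CPM (0.540, 0.447 to 0.648). In mural cells 5 of 17 measured were 2-fold higher and 2 lower, against 10.9% and 7.55% of all genes, with a median log2 ratio of 0.64. Socs3 was 3.74-fold (2.12 to 6.70) and Ier3 3.16-fold higher there (1.57 to 6.43), and Ctgf (0.278, 0.0981 to 0.643) was lower. Rhob was at 0.310 on 26 and 3 UMIs, with an interval that held 1. In endothelial cells 4 of 18 were higher and 4 lower, against 15% and 16.9% of all genes.

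**Figure D5:**
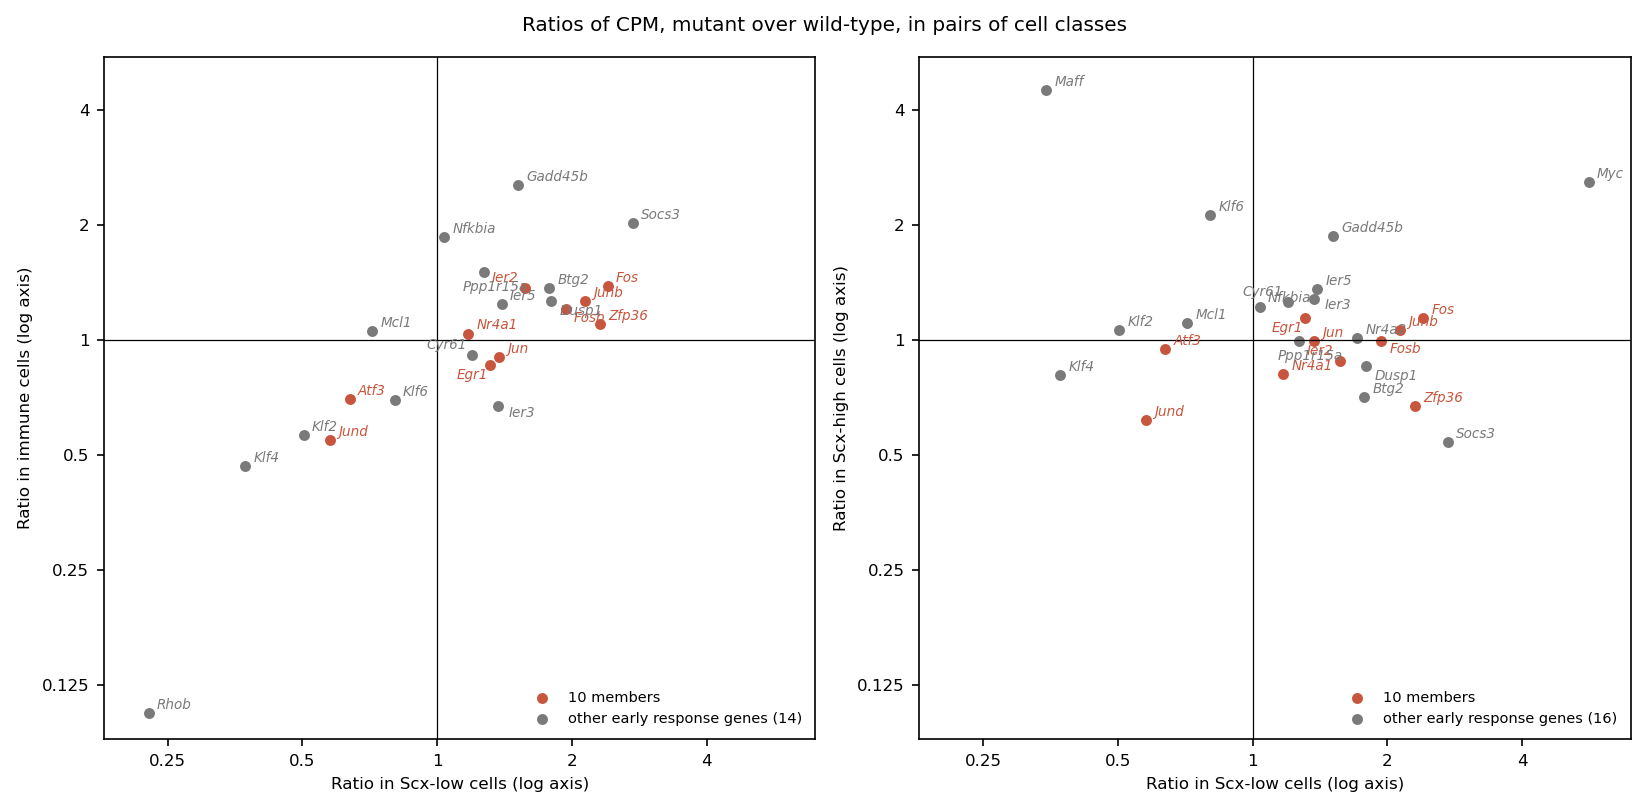
Ratio of CPM, mutant over wild-type, in Scx-low cells (x axis) against immune cells (left) and Scx-high cells (right), both axes logarithmic. Red points are the 10 genes and grey points the other early response genes measured in both classes. Jund, Klf4 and Rhob lie low in both Scx-low and immune cells, and Fos, Junb, Zfp36 and Socs3 lie to the right of 1 in Scx-low cells.

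Heat shock and chaperone genes also answer cell stress. Of 12, 9 were measured in Scx-low cells, none was at least 2-fold higher and 1 was lower, counts near the 3.41% and 6.89% of all genes, and the median log2 ratio was 0.02. That gene was Hspb1, a small heat shock protein, at 102 and 26.8 CPM (0.263, 0.209 to 0.328), and its ratio was 0.809 (0.576 to 1.15) without the wild-type cluster of 158 cells. Hspa8 (1060 and 1075 CPM) and Hsp90ab1 (1184 and 1325) lay near 1, and Dnajb1 was at 62.3 and 117 CPM (1.88, 1.56 to 2.28). Hspa1a, Hspa1b and Hsph1 were not among the 9 measured in Scx-low cells. In Scx-high cells 1 of 9 was 2-fold higher, again Hspb1 (3.72-fold, 2.64 to 5.26), and in immune cells none of 7 and in mural cells none of 9 was 2-fold different. In endothelial cells 2 were higher and 1 lower of 9.

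Of 21 other zipper partners and regulators of AP-1, 9 were measured in Scx-low cells, with a median log2 ratio of -0.05. Of these, 1 was at least 2-fold higher and 0 were lower, against 3.41% and 6.89% of all genes. Mapk3, a kinase that relays growth factor signals to these genes, had a ratio of 1.17 and Atf4, a stress-response factor, 0.906. In Scx-high cells 1 of 9 was higher, Elk3 (3.11-fold, 2.41 to 4.01), and in immune cells none of 7. In mural cells 2 of 11 were higher, and in endothelial cells 2 were higher and 2 lower of 11. The shares of all genes in each class are those given above. Of 8 growth factor receptors that act upstream, 5 were measured in Scx-low cells and Egfr alone was 2-fold higher, from 21.6 to 49.6 CPM (2.29, 1.68 to 3.19). In Scx-high cells Pdgfrb (2.60-fold, 2.03 to 3.33) was the only one of 4. In immune cells the 1 receptor measured, Fgfr1, was lower on 41 and 8 UMIs (0.267, 0.108 to 0.576). In mural cells none of 3 was 2-fold higher. In endothelial cells 2 of 3 were, against 15% of all genes, on 1 wild-type UMI each. These were Fgfr1 on 1 and 10 UMIs (interval 1.05 to 320) and Pdgfrb on 1 and 5 (0.412 to 174, which holds 1).

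Across the 10 class and library groups, the 6 genes outside the lists whose log2(CPM + 1) was most like the mean of the 10 were Pnrc1, Psmb10, Selenbp1, Fth1, Itm2b and St13, among 7820 genes. Pearson's r ran from 0.965 for Pnrc1 to 0.865 for St13, as a description over 10 groups that share 2 libraries. All 6 were highest in immune cells, and their lowest level was in Scx-high cells. Among the 10 themselves, Junb (0.953) and Zfp36 (0.930) followed the mean most closely, and Jund (-0.12) did not follow it. Each of the 10 is itself part of that mean, so its r cannot be compared with those of the 6 genes.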

How the data were processed

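The authors made the deposited UMI counts from 3′ libraries of the 10x Genomics system, using Cell Ranger, version 2.0 in the methods and 1.2.0 in the submitters' processing notes, on mm10. The counts are whole numbers without normalization, and all barcodes were used. Libraries held 9451606 and 8250248 UMIs, and 2 barcodes occurred in both. The 10 genes and the 4 other lists were chosen with earlier results of these data known.

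Counts were scaled to the median depth and logged. The 2000 most variable genes, without 47 early response and heat shock genes, gave 10 principal components, and K-means with k = 10 (50 starts, seed 1) gave clusters, named by at least 3 markers that were detected in 10% of cells and 2-fold higher than elsewhere. The wild-type cluster of 264 cells in the Scx-high class and the mutant cluster of 746 cells in the Scx-low class got no name by markers. Scrublet called 26 and 8 doublets, which were kept. UMIs were summed per class and scaled to CPM, with exact conditional intervals for ratios, Poisson intervals for levels and Clopper-Pearson intervals for shares. All 10 genes were named, with up to 4 genes of each other list that had the largest ratios and the 6 genes nearest in pattern, taking the 5 classes of both libraries as groups. Further genes of the lists were named after their values were seen. Some genes that this rule takes in are not reported here. The ratios and the thinning were tested on simulated data. Promoters are from RefSeq on GRCm38.p6. Alternatives were other clusterings, a marker gate on single cells, filters on cells and genes, doublet removal, equal UMIs per cell, leaving out the 20 most abundant genes, centring on the median gene and other thinning. Limits of at least 2000 UMIs, and leaving out 1 wild-type cluster, were chosen after seeing the data. Python 3.11.15, NumPy 2.4.6, SciPy 1.17.1, scikit-learn 1.9.0 and scanpy 1.11.5 were used. The p-values over cells in the study were not repeated.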

Additional observations from a re-analysis of the deposited data

How the results depend on the processing

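With 1 library per group, no replicate could be left out. No paired analysis was possible because the groups share no replicate number in the labels and each holds 1 library. The count of 3 genes at least 2-fold higher in Scx-low cells fell to 0 without the wild-type cluster of 158 cells. The count of 2 in mural cells was 1 with Leiden clustering and with centring on the median gene, and 0 with the marker gate and with equal UMIs per cell. The count of 0 in endothelial cells was 1 with the marker gate and with equal UMIs per cell. The share of cells with at least 5 genes, mutant minus wild-type, was 17.2 points in Scx-low cells after thinning, 6.71 without thinning and 12.0 with at least 3 genes. Without thinning it was 2.84 points in Scx-high cells and -13.9 in mural cells, against -2.82 and 6.55 after thinning, and in immune cells -17.4, with intervals of the shares that did not overlap, against -7.14 with overlap. In Scx-high cells the ratios of Fos and Egr1 turned under 1 when the 20 most abundant genes were left out (0.973 and 0.975) and when centred on the median gene (0.918 and 0.921). With the marker gate, on 709 wild-type and 87 mutant Scx-high cells, Zfp36 was at 0.905 and Jund at 0.760. Jun (1.26), Atf3 (1.28) and Junb (1.38) were then above 1, and Fosb (0.587), Ier2 (0.728) and Nr4a1 (0.653) under it. Under the other alternatives run the count was 3 or 4 in Scx-low cells and in mutant Scx-low against wild-type Scx-high cells, and it was 0 in Scx-high and immune cells under all of them. The causes were not tested. Endothelial values rest on 22 and 31 cells and mural values on 119 and 74.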

Other observations

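Proliferating cells, which were kept outside the 5 classes and named by cell cycle genes such as Mki67 and Top2a, formed 1 cluster of 99 cells in wild-type and 1 of 114 in mutant, and the 10 genes summed to 2671 and 2923 CPM there, near the level of Scx-high cells. Fos was at 824 and 1003 CPM in them, Junb at 338 and 401 and Jund at 342 and 208. After thinning to 1500 UMIs, 8.16% of 98 wild-type proliferating cells held at least 5 of the 10 genes (3.59 to 15.5, exact binomial 95% interval), and 17.7% of 96 mutant ones did (10.7 to 26.8).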
